A study of Mus musculus with 6 samples.

Results

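The genes described here encode laminin chains and nidogens, the proteins that build and link the laminin network of basement membranes. They were chosen by name as Lama2, Lama3, Lama4, Lama5, Lamb1, Lamb2, Lamc1, Nid1 and Nid2, 9 of the genes in a mouse array experiment on astrocytes. Probe accessions mapped to 7 of the 9 genes through 9 probes, of which Lama4 had 3 and every other gene 1. All 7 passed the filter on dim probes, among 20089 features tested, and Lama3 and Lamc1 are not analysed here.

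The cultures were primary astrocytes from the cortex and striatum of wild-type C57BL/6J pups, taken 1 day after birth and grown in medium with 10% serum. All cultures, controls included, had received 5 µM cytosine arabinoside for 2 days to remove dividing cells. Control cultures (2 arrays) received no inhibitor, and the labels name both control medium and DMSO for them. Ro cultures (2 arrays) received 1 µM Ro3303544, an inhibitor of the kinase GSK-3, for 48 h from day 13 in vitro, and washout cultures (2 arrays) received it for 48 h and then had 48 h without it. Control and Ro cultures were thus harvested at day 15 and washout cultures at day 17, with no control of the later age and no culture kept in inhibitor for the longer time. Nothing in the labels tells if cultures sharing a group were prepared separately, so p-values measure the spread between these arrays, which may be technical.

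A laminin is a trimer of 1 alpha, 1 beta and 1 gamma chain, assembled in the cell and secreted. The alpha chain carries the globular domains that bind integrins and dystroglycan, and the trimers join into a sheet that nidogens tie to the type IV collagen network. In the brain, astrocytes face vessels and the pial surface across such a sheet, and laminins with the alpha-2 chain are known as products of astrocytes, whereas those with alpha-4 and alpha-5 are best known from vessel walls. GSK-3 marks beta-catenin for destruction, so an inhibitor of it switches on the Wnt/beta-catenin pathway.

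Values are processed intensities of single-colour arrays, scaled so that each array had the same 75th percentile, and are called scaled intensity. The share of probes that stood well above background ran from 60.43% to 65.23% over the 6 arrays. Across features, the correlation of the paired arrays was 0.9953 for control, 0.9961 for Ro and 0.9921 for washout; precision is limited by having 2 arrays a group. All 8 listed astrocyte markers passed the filter. In Ro 5 fell and 2 rose, beside 22.7% and 19.4% of all features. The markers' summed scaled intensity was 112706 to 120769 in control, 82945 to 87985 in Ro and 116345 to 123939 in washout. The control and Ro arrays lay on 1 slide and the washout arrays on another, so for a single gene washout, slide and age cannot be told apart. A probe's brightness depends on its sequence, so levels of different genes were not compared, and the sum of a marker list is led by its brightest probes.

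Upstream sequences were at hand in RefSeq (build GRCm38.p6) for 5 of the 9 members, Lama2, Lama5, Lamb1, Lamb2 and Nid1. The bases before the outermost annotated start are shown for Lamb1 (chr12:31265043-31265145, plus strand), Lamb2 (chr9:108479612-108479846, plus strand) and Nid1 (chr13:13437352-13437601, plus strand), because these are the members with an entry whose level passed the test in at least 1 comparison. The stretches end at the gene's first annotated start, which for Lamb1 and Lamb2 lies upstream of the start the entry is built on, so the bases next to that later start are not shown. The stretches of Lamb1 and Nid1 each overlap 1 other annotated gene. Capitals mark the SP1 box GGGCGG and the CCAAT box CCAAT, each on either strand.
Lamb1: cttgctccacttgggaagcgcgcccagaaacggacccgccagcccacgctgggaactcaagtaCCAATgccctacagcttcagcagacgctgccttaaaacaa
Lamb2: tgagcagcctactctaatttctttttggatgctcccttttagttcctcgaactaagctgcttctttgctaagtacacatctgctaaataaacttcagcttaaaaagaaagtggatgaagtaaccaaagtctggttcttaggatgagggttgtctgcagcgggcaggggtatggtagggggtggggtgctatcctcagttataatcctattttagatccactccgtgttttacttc
Nid1: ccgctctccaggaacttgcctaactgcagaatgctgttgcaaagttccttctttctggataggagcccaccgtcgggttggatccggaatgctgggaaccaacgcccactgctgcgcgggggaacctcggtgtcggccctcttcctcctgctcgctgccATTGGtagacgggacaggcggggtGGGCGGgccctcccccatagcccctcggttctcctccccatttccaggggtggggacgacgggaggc

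In the 250 bases before the start in each of the 5 entries, the TCF/LEF words ATCAAAG and TTCAAAG, as well as AACAAAG and also TACAAAG, were searched on both strands. None of the 5 windows held them, against 14.8% of 32851 promoter windows of the same length. Nor did any hold the TATA box TATAAA (12.4% of all windows) or the E-box CACGTG (6.02%). Lama4 and Nid2 had no entry and were not searched. GGGCGG lay in 3 of the 5, with 4 matches in Lama5, 2 in Lamb1 and 1 in Nid1, against 32.7% of all windows; both of Lamb1 lie past the stretch shown. The CCAAT box lay in Lamb1 and Nid1, against 33.8% of all windows, and no matches of different motifs overlapped. A CArG box, the site bound by SRF, was matched in Lama2 as CCTTTAAAGG, against 1.47% of all windows. Only 1 base of the Lama2 window lies before the gene's first annotated start, so this match lies past that start. These matches describe letters in a window and not binding.

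With the inhibitor present, the members parted. Of 7 members, Lama4 and Lamb1 rose and Nid1 and Nid2 fell, while Lama2, Lama5 and Lamb2 did not pass the test in limma at an adjusted p under 0.05 (Benjamini-Hochberg over all features). That is 4 of 7 called, beside 42.1% of all features in the same comparison, of which 19.4% were higher and 22.7% lower. Their median difference was -0.13 on the log2 scale, beside 0.004 over all features. With 2 arrays a group the smallest two-sided p of an exact permutation test is 0.333, so each call rests on the spread that limma pools over features.

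**Figure D1:**
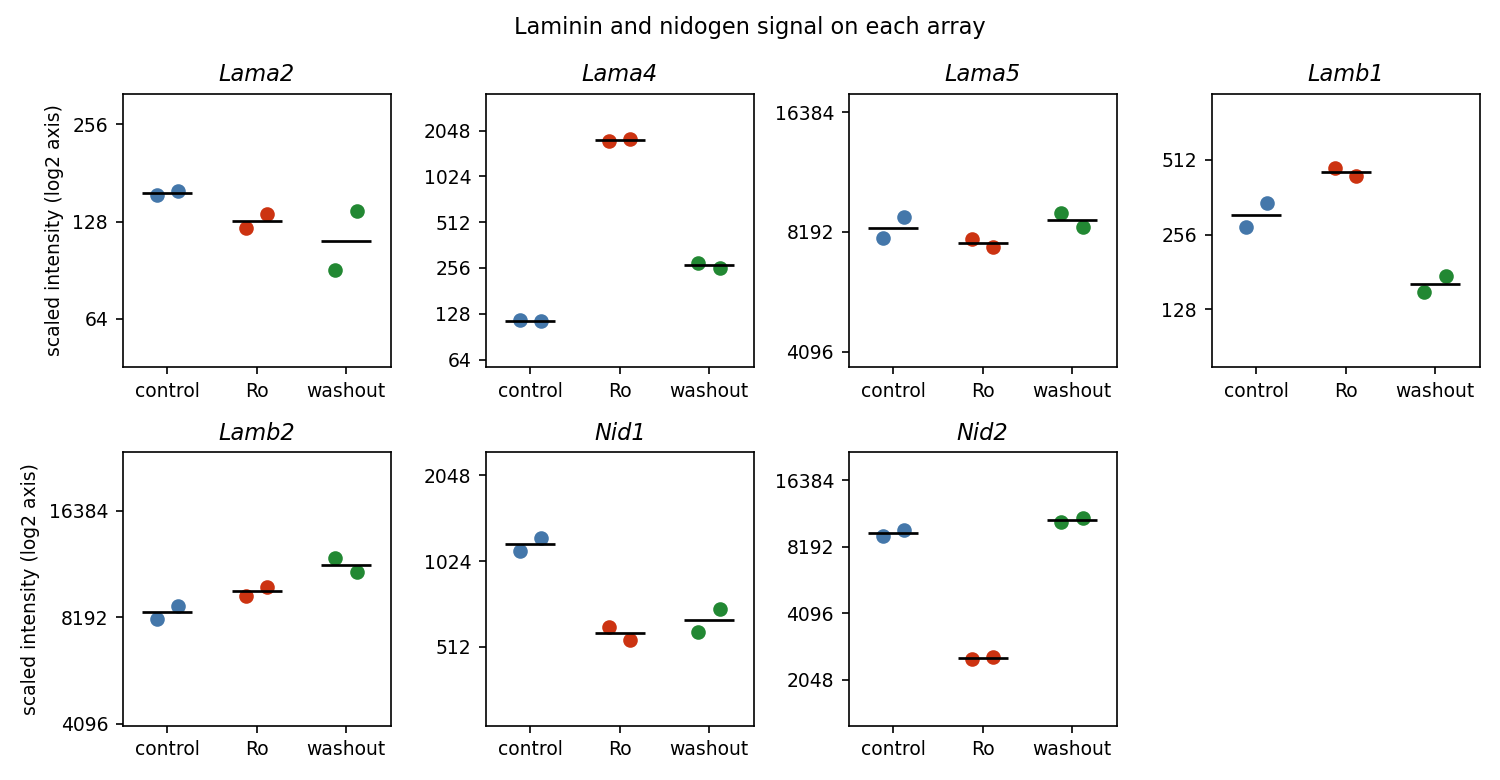
Scaled intensity (log2 axis) of the 7 measured members on each of the 6 arrays, by group; points are arrays and bars the geometric mean of 2. Lama4 is high in Ro and in between after washout, Nid2 is low in Ro alone, and Nid1 is low in Ro and washout.

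Lama4, which encodes the alpha-4 chain, had the largest change of the 7 measured members, up in Ro and down after it. Its scaled intensity was 116.7 and 114.0 in the control cultures, 1761.4 and 1796.5 in the Ro cultures, and 274.6 and 257.5 after washout. Both Ro arrays were far above the other 4, and washout lay between control and Ro without overlap. In Ro it rose by 3.95 ± 0.07 on the log2 scale (± standard error, 2 arrays a group), or 15.4-fold, with an adjusted p of 3.8e-05 in limma. That was the 75th largest absolute difference among 20089 features. After washout Lama4 was 6.69-fold lower than in Ro (-2.74 ± 0.07, limma adjusted p = 0.00010), yet it was still 2.31-fold above control (1.21 ± 0.07, limma adjusted p = 0.0054). All 3 calls held under each of the 19 alternatives run for every member, listed with the processing.

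**Figure D2:**
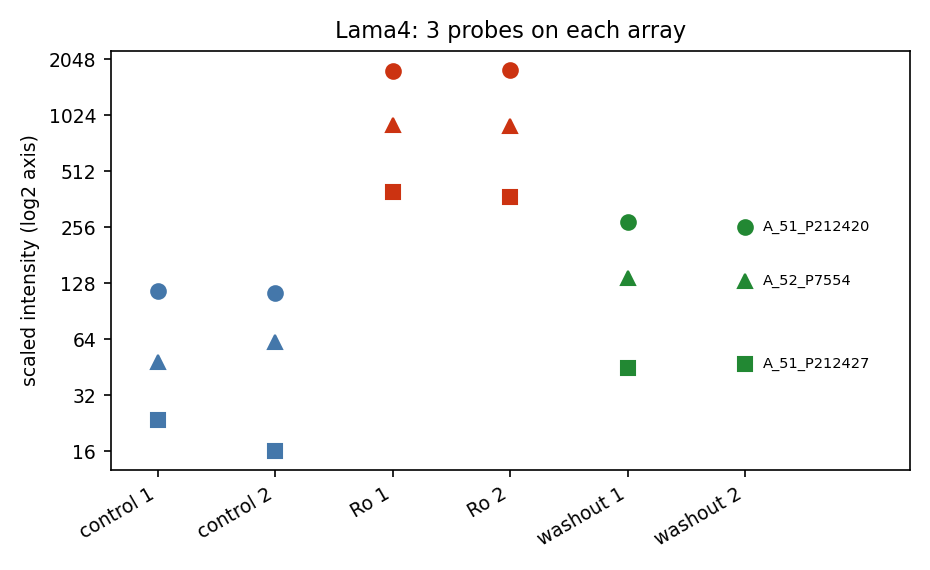
Scaled intensity (log2 axis) of the 3 Lama4 probes on each array, 1 symbol per probe and 1 colour per group. Each probe is high on both Ro arrays and intermediate on both washout arrays.

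The other Lama4 probes gave like changes. One read 48.1 and 62.1 in control, 909.0 and 900.8 in Ro and 136.8 and 131.3 after washout, a rise of 4.05 ± 0.13 in Ro. The dimmest read 23.4 and 16.1 in control, 395.9 and 370.3 in Ro and 45.0 and 47.0 after washout, a rise of 4.30 ± 0.19. That dimmest probe was well above background on 5 of 6 arrays, the exception being control 2. From control to washout the other 2 probes stood 1.29 ± 0.13 and 1.24 ± 0.19 higher.

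Markers of endothelial cells, a known source of laminin alpha-4, were given beside this rise. Of 8 listed, 3 passed the filter: the receptor gene Kdr rose by 3.11 ± 0.10 in Ro, the receptor gene Flt1 fell by 0.38 ± 0.11, and Emcn, a sialomucin, was at least 2.49-fold lower. Pecam1, an adhesion gene, and Tie1, a receptor tyrosine kinase gene, were not well above background on any array, at most 5.73 and 5.53. Cdh5 was well above background on 2 arrays and Cldn5 on 1, at most 27.0 and 26.4, and Tek was not analysed here. The summed level of the 3 measured markers was 757.1 to 828.6 in control, 2239.8 to 2430.9 in Ro and 770.1 to 853.5 after washout. The rise of that sum in Ro came from Kdr alone, at 223.1 and 220.2 in control and 1799.6 and 2037.5 in Ro. Flt1 and Emcn went the other way. In these bulk cultures, a change in the number of cells of a type and a change in RNA per cell cannot be told apart.

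Lama2 encodes the alpha-2 chain, whose loss causes a congenital muscular dystrophy with white matter changes. It read 155.1 and 159.7 in control, 122.4 and 134.9 in Ro, and 90.5 and 137.8 after washout. The 2 washout arrays stood apart from each other more than any other pair of the family, with washout 1 the lowest of all 6 and washout 2 above both Ro arrays. In Ro the difference from control was -0.29 ± 0.21 (95% interval -0.82 to 0.23, limma adjusted p = 0.30). That error takes in the spread of the washout arrays. With the control and Ro arrays fitted alone, the difference was -0.293 ± 0.081 (limma adjusted p = 0.05) and was still not called. After washout it was -0.49 ± 0.21 from control (95% interval -1.02 to 0.03, limma adjusted p = 0.20) and -0.20 ± 0.21 from Ro (limma adjusted p = 0.47). These depended on 1 array: without washout 2 Lama2 was lower than control (-0.798, limma adjusted p = 0.035) and lower than Ro (-0.505, limma adjusted p = 0.025), and without washout 1 the difference from Ro was 0.101 (limma adjusted p = 0.48).

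Lama5, the alpha-5 chain of mature vessel and epithelial basement membranes, gave the narrowest range. It read 7887.4 and 8922.4 in control, 7847.1 and 7494.9 in Ro, and 9121.2 and 8443.0 after washout. The Ro arrays were the lowest pair, and control and washout overlapped. None of its differences passed the test, at -0.13 ± 0.09 in Ro against control (95% interval -0.37 to 0.11), 0.19 ± 0.09 after washout against Ro (-0.05 to 0.44), and 0.07 ± 0.09 after washout against control (-0.18 to 0.31).

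The beta chains took different courses. Lamb1, the beta-1 chain of early and most embryonic laminins, read 273.3 and 341.3 in control, 472.5 and 440.5 in Ro, and 149.9 and 174.1 after washout. No 2 groups overlapped, with Ro highest and washout lowest. It rose 1.49-fold in Ro (0.58 ± 0.14, limma adjusted p = 0.027), was 2.82-fold lower after washout than in Ro (-1.50 ± 0.14, limma adjusted p = 0.0013), and ended 1.89-fold below control (-0.92 ± 0.14, limma adjusted p = 0.025). The fall after washout held under all 19 alternatives. The rise in Ro was not called without control 1 (0.419, limma adjusted p = 0.088), Ro 1 (0.528, limma adjusted p = 0.12) or Ro 2 (0.630, limma adjusted p = 0.081), or with no filter on dim probes (limma adjusted p = 0.075). The difference from control after washout was not called without control 1 (-1.079, limma adjusted p = 0.053), control 2 (-0.759, adjusted p = 0.089), Ro 1 or Ro 2 (-0.919, adjusted p = 0.060 each) or washout 1 (-0.811, adjusted p = 0.085), with no filter, or with the arrays of control and washout alone (adjusted p = 0.060).

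Lamb2, the beta-2 chain of vascular, synaptic and kidney laminins, read 8083.7 and 8828.1 in control, 9434.1 and 9964.6 in Ro, and 12013.5 and 11004.0 after washout. The groups stepped upward without overlap, by small amounts. Against control it was 0.20 ± 0.09 higher in Ro, which did not pass (95% interval -0.03 to 0.43, limma adjusted p = 0.13), and against Ro it was 0.25 ± 0.09 higher after washout (0.02 to 0.47, limma adjusted p = 0.080). After washout Lamb2 was 1.36-fold above control (0.44 ± 0.09, limma adjusted p = 0.044). That last call was lost without each of the 6 arrays in turn, with a difference of 0.381 to 0.508 and limma adjusted p of 0.069 to 0.15, and with the authors' values (0.383, limma adjusted p = 0.055).

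The nidogens are rod-like glycoproteins that bind the laminin gamma-1 chain and type IV collagen. Both fell with the inhibitor, and their values after washout differed. Nid2 read 9223.2 and 9750.7 in control, 2539.1 and 2588.9 in Ro, and 10668.1 and 11019.9 after washout. Both Ro arrays lay far below the other 4, and the washout arrays were slightly above the control arrays. It fell 3.70-fold in Ro (-1.89 ± 0.07, limma adjusted p = 0.00017) and rose 4.23-fold after washout (2.08 ± 0.07, limma adjusted p = 0.00016). Washout and control differed by 0.19 ± 0.07, which did not pass the test (95% interval 0.01 to 0.37, limma adjusted p = 0.16). These 3 outcomes were the same under all 19 alternatives.

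Nid1 read 1113.1 and 1235.5 in control, 600.5 and 541.4 in Ro, and 578.6 and 694.4 after washout. Both control arrays were above the other 4, and Ro and washout overlapped. In Ro it was 2.06-fold lower than in control (-1.04 ± 0.12, limma adjusted p = 0.0029), a call that held under all 19 alternatives. After washout it differed from Ro by 0.15 ± 0.12 (95% interval -0.16 to 0.47, limma adjusted p = 0.37) and stood 1.85-fold below control (-0.89 ± 0.12, limma adjusted p = 0.021). That last call was lost without control 1 (-0.963, limma adjusted p = 0.073), control 2 (-0.812, adjusted p = 0.098), Ro 1 or Ro 2 (-0.888, adjusted p = 0.051 each) or washout 1 (-0.756, adjusted p = 0.060), with no filter, or with the arrays of control and washout alone (adjusted p = 0.051). The call against control was also lost with the replicate block and with a fold minimum of 2. The interval of the step from Ro to washout was 1.90 to 2.26 for Nid2, above that of Nid1. The difference between the genes was not tested.

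**Figure D3:**
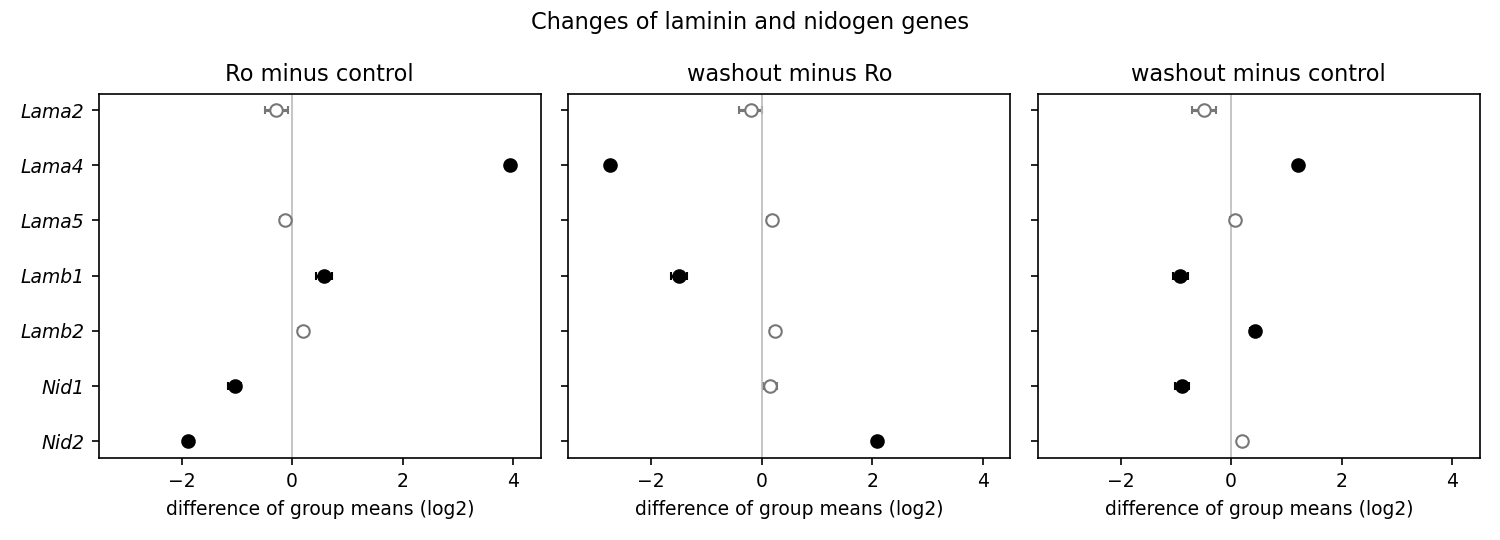
Difference of group means (log2, ± standard error from limma) of each measured member in the 3 comparisons; filled points passed the test at an adjusted p under 0.05. Lama4 and Nid2 have the largest changes in Ro, in opposite directions, and both change sign from Ro to washout.

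After washout, against Ro, 1 of the 7 members was higher (Nid2) and 2 were lower (Lama4 and Lamb1), beside 41.5% of all features called, 21.4% higher and 20.1% lower. Their median difference was 0.15 on the log2 scale, beside -0.02 over all features. Against control, 2 were higher after washout (Lama4 and Lamb2) and 2 lower (Lamb1 and Nid1), 4 of 7 beside 10.1% of all features (4.11% higher and 5.95% lower), with a median of 0.07 beside -0.011. Of these 4 calls, that of Lama4 held without each array, and each of the others was lost without at least 5 of the 6 arrays in turn. The comparisons share arrays, so they are not independent of each other.

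Marker lists of other cell types are given beside the members' values. Over all features 22.7% fell and 19.4% rose in Ro, and 5.95% were lower and 4.11% higher than control after washout. Of 7 measured pericyte and smooth muscle markers 5 fell and 1 rose in Ro, and their summed scaled intensity was 415341 to 455329 in control, 158807 to 160022 in Ro and 321553 to 330605 after washout. Nearly all of that sum came from the contractile genes Acta2 and Tagln. Abcc9 of that list was not well above background on any array. Of 11 measured meningeal fibroblast markers 5 fell and 2 rose in Ro, and 8 were lower and 1 higher than control after washout. Their sum was 21234 to 25118 in control, 17872 to 18879 in Ro and 13148 to 14516 after washout, and Slc6a13 was not well above background on any array. Microglial markers summed to 4461.1 to 4618.6 in control, 2714.9 to 3427.6 in Ro and 4384.4 to 4889.6 after washout, with 5 of 8 lower in Ro and 0 higher in limma (0 at an unadjusted p under 0.05). All 4 measured markers of oligodendrocyte precursors fell in Ro, with sums of 18126 to 18401 in control, 4530.9 to 4536.5 in Ro and 11209 to 11837 after washout, and Gpr17 of that list was not well above background on any array. Of 4 measured Schwann cell markers 3 fell in Ro and 1 rose, and after washout 2 were higher and 1 lower than control. Their sums were 36372 to 37426 in control, 20590 to 21660 in Ro and 33539 to 36298 after washout, nearly all from 1 marker whose difference from control after washout did not pass. The part of these cells in the changes of the members was not tested.

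Some laminin chains outside the 9 were also looked for. Lama1 and Lamb3 were not well above background on any array, at most 9.90 and 7.85, and Lamc3 on 1 array.

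Among the collagens and proteoglycans that share the sheet with laminin, 4 of 9 measured fell in Ro and 0 rose in limma (1 higher at an unadjusted p under 0.05). The median difference of the 9 was -0.28, beside 0.004 over all features, of which 22.7% fell and 19.4% rose in Ro. Col4a3, a type IV collagen chain, read 70.4 and 59.7 in control and 17.4 and 10.1 in Ro, and it fell by 2.29 ± 0.26 in Ro. Its Ro readings were dim. The 10.1 on Ro 2 is below the Ro mean of Emcn (13.9), a gene not well above background there. The sizes of the Col4a3 fall in Ro and of its rise after washout are thus uncertain. The main type IV chains Col4a1 and Col4a2 fell by 1.03 ± 0.08 and 0.92 ± 0.12, and Col18a1, the source of endostatin, by 0.44 ± 0.11. The heparan sulfate proteoglycan genes Hspg2 (-0.28 ± 0.14) and Agrn (0.08 ± 0.07) did not pass. After washout Col4a1 (0.44 ± 0.08) and Col4a3 (1.69 ± 0.26) were higher than in Ro, and Col4a1 (-0.59 ± 0.08) and Col18a1 (-0.69 ± 0.11) were below control, and both of the last calls in limma were lost without control 1, control 2, Ro 1, Ro 2 or washout 1 (0 of 9 called, 3 to 5 at an unadjusted p under 0.05). Without washout 2, 1 of 9 was called lower than control, and without Ro 1 or Ro 2, 1 was called higher after washout than in Ro. The Col4a1 probe lies in a region of at least 1 array where dim spots were raised, called a bright region, as no member's probe does, and Col15a1 was not well above background on any array. Bright regions took 5.22% of spots on washout 1, 1.191% on washout 2, 0.004% on Ro 1 and 0.0% on the other arrays.

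Of 12 other measured basement membrane proteins, 6 fell and 2 rose in Ro (median -0.34), beside 22.7% and 19.4% of all features. The rises were large: Thbs4, a thrombospondin, went from 48.5 and 51.5 to 483.9 and 523.8 (3.33 ± 0.18), and Fbln1, a fibulin that binds laminin and nidogen, from 471.2 and 407.8 to 2899.7 and 2937.1 (2.74 ± 0.10), the latter with its probe in such a bright region. From Ro to washout Thbs4 fell by 3.36 ± 0.18, to 59.0 and 41.0, 1 array above and 1 below both control arrays, and its difference from control (-0.02 ± 0.18) did not pass. From Ro to washout Fbln1 fell by 1.84 ± 0.10, and it was still 0.89 ± 0.10 above control. As bright regions lay almost wholly on the washout arrays, that limit concerns these differences more than the rise of Fbln1 in Ro. The calcium-binding matricellular gene Smoc1 fell by 1.83 ± 0.08 in Ro and rose by 1.70 ± 0.08 after washout, and its relative Smoc2 was at least 1.28-fold lower in Ro. After washout Smoc2 was not well above background either. It is 1 of the 2 called below control there, but no bound on the size of that change could be set. Vwa1, which encodes a partner of perlecan, was 0.85 ± 0.10 higher after washout than in Ro and differed from control by -0.72 ± 0.10. Without control 2, 4 of the 12 were called lower in Ro. Against control after washout 1 was higher and 2 lower, and without control 2 or washout 1 limma called 0 (3 and 5 at an unadjusted p under 0.05). Without control 1, Ro 1, Ro 2 or washout 2, 1 was called lower than control.

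Of 11 measured laminin receptor and associated genes, 6 fell and 2 rose in Ro (median -0.27), beside 22.7% and 19.4% of all features. The integrin subunits Itga1, Itga6 and Itga3, which pair with the beta-1 subunit in laminin receptors, fell by 1.39 ± 0.07, 1.28 ± 0.08 and 1.11 ± 0.10. Itga6 read 2100.8 and 2296.2 in control, 875.5 and 932.2 in Ro, and 1290.3 and 1339.8 after washout. Rpsa, a ribosomal protein gene also named for a laminin receptor, rose by 0.90 ± 0.07. After washout Itga1 (1.26 ± 0.07) and Itga3 (0.93 ± 0.10) were higher than in Ro and Rpsa was lower (-1.08 ± 0.07). In all, 6 of 11 were higher and 1 lower, beside 21.4% and 20.1% of all features. Itgb4, the partner of Itga6 in hemidesmosomes, read 433.0 and 410.2 in control, 401.3 and 468.2 in Ro, and 863.1 and 764.4 after washout. Against control after washout, Itgb4 was higher (0.95 ± 0.11) and Itga6 lower (-0.74 ± 0.08), and limma called 0 of the list without control 1, control 2 or washout 1 (4, 3 and 3 at an unadjusted p under 0.05). Between 4 and 5 were called lower and 1 to 2 higher in Ro when any 1 array was left out; 1 was higher without Ro 1 or Ro 2. From Ro to washout, 4 were higher and 2 lower without washout 1 or without washout 2, and against control 2 were lower without washout 2.

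Dystroglycan, a laminin receptor of astrocyte endfeet, links laminin to dystrophin and depends on added sugars for binding. Of 17 measured genes of its complex and glycosylation, 7 fell and 2 rose in Ro (median -0.22), beside 22.7% and 19.4% of all features. Dag1, which encodes dystroglycan, differed from control by -0.18 ± 0.20 and did not pass. Dmd, which encodes dystrophin, fell by 1.01 ± 0.07 and the sarcoglycan gene Sgce fell by 0.58 ± 0.07, while the syntrophin gene Sntb2 rose by 0.77 ± 0.20. After washout 6 were higher than in Ro and 1 lower, beside 21.4% and 20.1% of all features. In that comparison Dmd stood at 0.85 ± 0.07, Sgce at 0.68 ± 0.07 and Sntb2 at -0.87 ± 0.20. The Dmd probe was among those in bright regions. After washout 0 of the 17 differed from control in limma (1 at an unadjusted p under 0.05), where 10.1% of all features were called. In Ro, 3 were lower and none higher without Ro 1 or without Ro 2, and 5 lower and none higher without control 1 or without control 2. From Ro to washout 4 were higher without Ro 1 and 5 without Ro 2, with 0 lower in either case.

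Among 10 measured enzymes and chaperones of matrix assembly, 4 fell and 1 rose in Ro (median -0.18), beside 22.7% and 19.4% of all features. The collagen cross-linking gene Loxl2 fell by 1.00 ± 0.10, the prolyl hydroxylase genes P4ha1 and P4ha2 by 0.80 ± 0.07 and 0.47 ± 0.10, and their partner P4hb rose by 0.52 ± 0.07. After washout P4ha1 rose by 0.71 ± 0.07, and P4hb (-0.46 ± 0.07) and Loxl1 (-0.43 ± 0.08) were lower than in Ro. Against control 4 of 10 were lower after washout, beside 5.95% of all features. The 4 were Loxl2 (-0.73 ± 0.10), Loxl1 (-0.64 ± 0.08), Plod2 (-0.51 ± 0.11) and P4ha2 (-0.47 ± 0.10). Against control, limma called 0 of them without control 1, control 2, Ro 1 or Ro 2 (4 at an unadjusted p under 0.05 in each case), 1 without washout 1 and 3 without washout 2, and in Ro 2 were lower without control 2, Ro 1 or Ro 2. From Ro to washout 1 was lower without Ro 1 or Ro 2, and 2 were higher and 3 lower without washout 1.

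The features most like Lama4 over the 6 arrays were sought by the root mean square distance between log2 values, each relative to the control mean. They included Mal (0.151), Axin2 (0.275), Fzd10 (0.278), and Grpr (0.311), with differences in Ro of 3.77, 4.29, 3.90 and 4.34 on the log2 scale, beside 3.95 for Lama4. Camkv, also near by this measure, was not well above background in control and has no measured distance; it was at least 9.51-fold higher in Ro. For Nid2 they included Pdgfb (0.060), Fhad1 (0.064), Slc22a4 (0.068) and Osgin1 (0.083), each at -1.86 in Ro beside -1.89 for Nid2. These distances are descriptions over 6 arrays in 3 groups.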

How the data were processed

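RNA of 6 cultures was labelled with Cy3 and hybridised singly. The deposited array files hold an intensity per spot on a linear scale, corrected for background within each array by Agilent Feature Extraction (10.1 per the submitters' processing notes, 10.5.1.1 per the file headers). A value table, also deposited, gives for each probe a ratio on a linear scale whose centring is unknown; over all rows of that table the column medians were 0.9868, 0.9452, 0.9476, 0.9723, 0.8719 and 0.9373, its probe-centred log2 values correlated with those of the intensities at r = 0.9972 or above, and it was an alternative only.

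Of 41174 non-control probes 106 had faulty spots and were left out. Each array was scaled by its 75th percentile, and log2 values were tested. A probe was kept if both arrays of any 1 group had it well above background (26472), and the brightest probe stood for a gene. RefSeq accessions named 61.0% of probes. limma 3.58.1 in R 4.3.3 fitted 1 mean per group over all 6 arrays (3 residual and 2.09 prior degrees of freedom), tested on simulated data. For a gene not well above background in 1 group, the change is a lower bound against the lowest signal called above background.

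Of 19 alternatives, 17 changed the scaling (median, quantile), background (normexp on the median signal), source of values, filter, variance model (trend, robust), choice of probe, arrays fitted, replicate block and fold minimum, and left out each of 6 arrays. An exchanged pairing and a fit without bright regions were chosen after seeing the data. Members and lists were chosen with earlier results of these data known. Members were all named, of each other list up to 4 genes with the largest called changes, and 5 genes most like each of Lama4 and Nid2; other genes were named after their values were seen, and some genes that fall under these rules are not reported here. Figures were drawn with matplotlib 3.10.9.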

Additional observations from a re-analysis of the deposited data

Results flagged for a closer look

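The Lamc3 probe A_52_P463935 was left out by the filter, yet it was well above background on Ro 1, at a scaled intensity of 17.7. Its control arrays, at 14.2 and 12.7, were not. The Ro 2 array read 21.4 without that call, and the washout arrays read 11.8 and 12.4. The second Lamc3 probe was not well above background on any array.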

How the results depend on the processing

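All called changes of Lama4, Nid2 and Nid1 in Ro, and of Lama4, Nid2 and Lamb1 from Ro to washout, kept their direction and their call under all 19 alternatives. The number of members lower in Ro was 2 under each, and the number lower after washout than in Ro (2) was 3 without washout 2, with Lama2 added at -0.505, and 2 under the others. The number higher in Ro (2) was 1 with no filter and with a fold minimum of 2, and 1 to 2 without single arrays. The number higher after washout than in Ro (1) was 2 with quantile normalization and 2 with an intensity trend in the variance, the second being Lamb2. The number higher after washout than in control (2) was 1 with the authors' values, with no filter, with the arrays of the 2 groups alone, with the replicate block, with the Ro numbers exchanged in that block and with a fold minimum of 2, and 1 to 1 without single arrays. The number lower after washout than in control (2) was 1 with the replicate block and 0 with no filter, with the 2 groups alone (in limma 2 at an unadjusted p under 0.05 in both) and with a fold minimum of 2, and 0 to 3 without single arrays. Of single changes, Lama2 after washout against Ro turned to 0.101 without washout 1, and Lama5 after washout against control to -0.024 without control 1 (0.154 without control 2); neither was called. Under the fold minimum of 2, the calls of Lamb1 in Ro and of Lamb1, Lamb2 and Nid1 after washout against control were lost. Nid1 was the member no longer called lower under the replicate block. The other causes were not tested. The replicate numbers gave correlations of deviations of -0.119 (control and Ro), 0.078 (control and washout) and -0.111 (Ro and washout). Taken over all features with 2 arrays a group, these do not decide if arrays with the same number belong together. The block called 2 members higher and 2 lower in Ro. With 2 arrays a group, differences of the size seen for Lama2, Lama5 and Lamb2 in Ro were not called. For Lama2 the standard error of the main fit takes in the spread of the washout arrays, and the control and Ro arrays did not overlap.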
